A study of Mus musculus with 8 samples.

Results

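Oligo1 is 1 of 4 oligodendrocyte clusters that the authors drew from single-cell RNA sequencing of mouse brain. Its members were taken from the cluster column that the authors deposited with the cells, restricted to the libraries of FIREdelta/delta (KO) mice, and they numbered 1552 of the 6696 KO cells and of the 12581 cells in all. Another 6 cells of the cluster lay in wild-type (WT) libraries. The KO mice lack the Fms intronic regulatory element, an enhancer in the second intron of Csf1r. They carry no microglia in the brain but keep perivascular macrophages, and WT mice of the same mixed background have the element. The 4 KO libraries were a hippocampal and a cortical one each from KO mouse 3, aged 1 month and 18 days, and KO mouse 6, aged 1 month and 16 days. All animals were female, and "cortex" here was the rest of the left hemisphere after the hippocampus had been taken out. Each library was a sorted cell suspension, and the WT partner mice, 1 and 4, matched KO mice 3 and 6 in age. A KO and a WT library of the same tissue shared each batch. The study's methods call batch 6 of poorer quality without naming its tissue or mouse. It is taken here as the batch with the cortex of KO mouse 6. Since both tissues of a mouse come from the same animal, 4 libraries stand for 2 KO mice, and the spread given below is over the 4 libraries.

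Oligodendrocytes wrap axons in myelin, a stack of lipid-rich membrane held together by proteins such as MBP and MOG. They make much of their own cholesterol and fatty acid, and they supply axons with metabolites. Mature oligodendrocytes are known to occur in several transcriptional states, some of them marked by Klk6, S100b and Anxa5, others by Ptgds, Il33, Apod and Opalin. In injury, ageing and demyelinating disease, oligodendrocytes with high levels of C4b, a component of the complement cascade, and Serpina3n, a secreted inhibitor of serine proteases, are well known, and signalling through the receptor subunit gp130 and the transcription factor STAT3 is a classical inducer of acute-phase genes.

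The question here was how Oligo1 cells differed from each of the other clusters, taken apart rather than pooled, inside the same libraries. Oligo1 held 859 cells in the hippocampus of mouse 3, 448 in the hippocampus of mouse 6, 147 in the cortex of mouse 3 and 98 in the cortex of mouse 6. In the same libraries and order, Oligo2 held 441, 331, 276 and 227 cells, Oligo3 held 1218, 887, 604 and 507, and Oligo4 held 266, 268, 47 and 72. Every series of 4 values below follows this order of libraries unless it says otherwise. Between libraries, 5 cell barcodes occurred more than once. The labelled cell type was checked on 3 myelin genes, Mbp, Mog and Mag, whose mean log2 values in Oligo1 were 5.28, 4.01 and 4.76, and none of them differed from another cluster by the limit used below. C4b, Serpina3n, Anxa2 and Snx10, the markers given for Oligo1, were each higher in it than in every other cluster. With cells thinned to 5000 UMIs, Snx10 stayed above each cluster in every library but by 0.19 to 0.22, under the limit, and the other 3 kept their calls.

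The level of a gene is its mean log2 value per cell, where a cell's value is the log2 of its count of unique molecular identifiers (UMIs, 1 per captured RNA molecule) divided by the cell's size factor, plus 1. A gene is called higher or lower in Oligo1 where the difference in level from another cluster had the same sign in all 4 libraries and a mean size of at least 0.25. Because the clusters were themselves drawn from these values, a difference between clusters is a description of what the clustering separated, and no p-value is attached to it. Where a fold is given, it is the geometric mean over the 4 libraries of the ratio of CPM (a gene's UMIs per 1000000 UMIs of the cluster), with the lowest and highest library in brackets. Median UMIs per cell in Oligo1 were 9959, 11135.5, 14205 and 13730. On the log2 scale they differed from those of Oligo2 by -0.0285 ± 0.0165 (SD, n = 4 libraries), of Oligo3 by 0.135 ± 0.0233 and of Oligo4 by -0.1457 ± 0.0284, with the same sign in every library and an exact sign-flip p of 0.125 each (two-sided), the smallest that 4 libraries allow. Thus Oligo1 cells were deeper than Oligo3 cells and shallower than Oligo4 cells in each library. The comparisons were therefore repeated with every cell thinned to 5000 UMIs. All 3 comparisons use the same Oligo1 cells, so their results are not independent of each other.

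Against Oligo2, 134 genes were higher in Oligo1 (1.43% of 9359 compared) and 161 were lower (1.72%). Against Oligo3, 107 were higher (1.15% of 9296) and 101 lower (1.09%). Against Oligo4, 115 were higher (1.22% of 9392) and 92 lower (0.98%). The typical gene hardly moved, with a median absolute difference of 0.021 against Oligo2, 0.0196 against Oligo3 and 0.0241 against Oligo4. Differences of at least 0.5 were seen for 29 higher and 34 lower genes against Oligo2, for 27 and 14 against Oligo3, and for 34 and 18 against Oligo4.

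**Figure D1:**
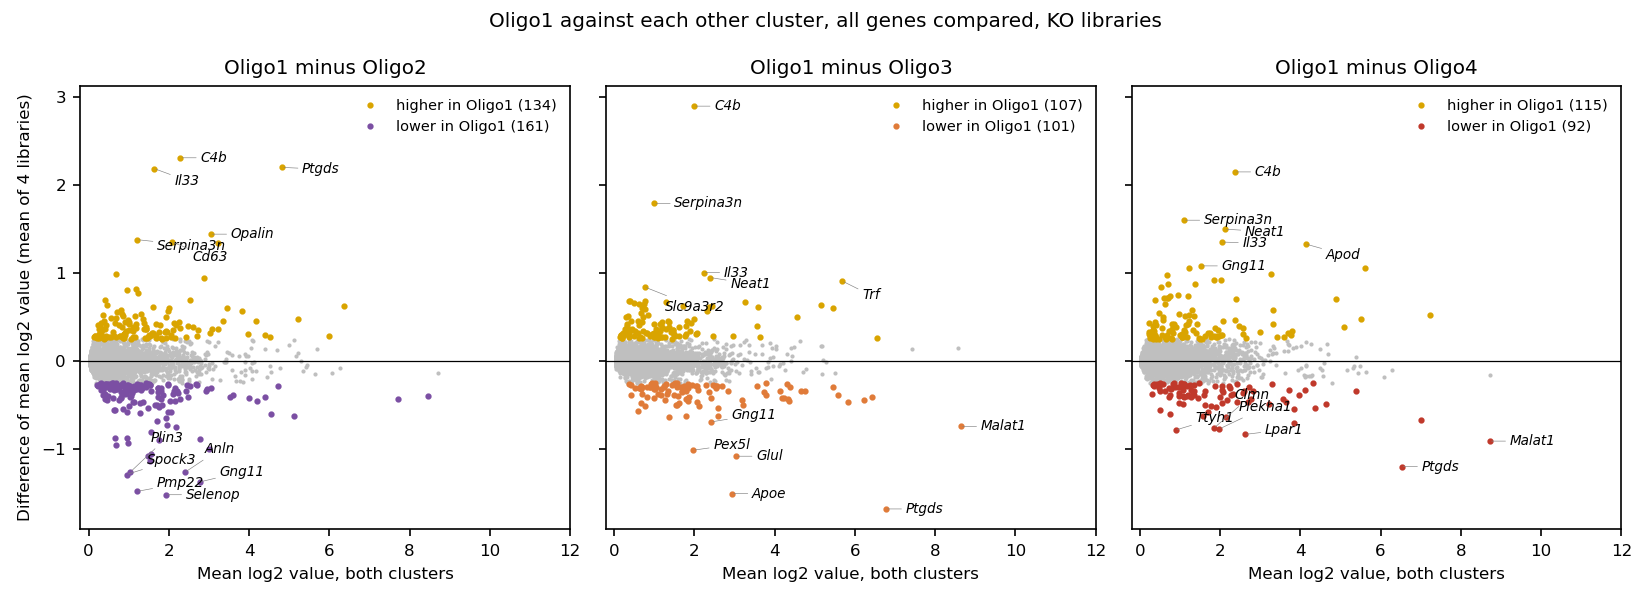
Difference in mean log2 value between Oligo1 and Oligo2, Oligo3 or Oligo4 (vertical axis, mean of 4 KO libraries) against the mean level of the gene in both clusters (horizontal axis, log2). Each point is a gene, coloured points were called higher or lower, grey points were not, and C4b is the highest point in each panel, at 2.31, 2.90 and 2.15.

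When abundance was instead taken as log2 of CPM over the summed cells of a cluster, with 10 added, more genes crossed the same limit, since this scale compresses low levels less. Against Oligo2, 820 genes were then higher (8.76%) and 795 lower (8.49%). Against Oligo3 the numbers were 824 (8.86%) and 485 (5.22%), and against Oligo4 they were 1084 (11.5%) and 473 (5.04%). The scale also changed the balance of directions. Of the genes called against Oligo3, 51.4% were higher on the mean log2 scale and 62.9% on the CPM scale, and against Oligo4 these shares were 55.6% and 69.6%.

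Only 26 genes were higher in Oligo1 than in all 3 other clusters (0.284% of 9145 compared), with each of the 12 differences above 0, and 2 genes, Malat1 and Stmn1, were lower (0.0219%). The 26 genes were C4b, Serpina3n, Il33, Neat1, Anxa2, Ly6a, Masp1, Cebpd, Msrb1, Lbh, Tmed10, Fabp5, Htra1, Ndst1, Cd63, Rhoj, Sulf2, Tulp4, Trf, Snx10, Cela1, Arhgef12, Sparc, Gadd45a, Arhgap15 and Adssl1. When cells were thinned to 5000 UMIs, which leaves fewer UMIs in each cell, 18 of the 26 still passed. The 8 that did not were Arhgap15, Sulf2, Snx10, Gadd45a, Rhoj, Adssl1, Cela1 and Tulp4, although all 26 kept the 12 differences above 0. Of the 2 lower genes, Malat1 passed and Stmn1 did not. All 26 passed the limit on the CPM scale, among 191 genes that did (2.09%), beside 29 that were lower than in each cluster (0.317%). As a description of how these genes, chosen for being high, were spread over cells, the median thinned Oligo1 cell had a UMI of 15 to 17 of the 26, depending on the library, against 9 to 11 in the other clusters.

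C4b encodes complement component C4, which is cleaved by the C1 and lectin-pathway proteases to build the C3 convertase. It lies on chromosome 17 (GRCm38, 34728380 to 34743882, minus strand). Its level in Oligo1 was 3.47, 3.42, 3.51 and 3.36, against 1.42, 1.25, 0.83 and 1.03 in Oligo2, 0.67, 0.50, 0.34 and 0.67 in Oligo3 and 1.59, 1.04, 1.18 and 1.36 in Oligo4. Every Oligo1 value stood above every value of the other clusters. C4b was 4.38-fold (3.28 to 6.12) above Oligo2, 13.1-fold (9.23 to 24.2) above Oligo3 and 4.48-fold (3.53 to 5.75) above Oligo4. In WT libraries, over all oligodendrocytes, its level was 0.05 to 0.13. C4a, a close paralogue whose reads can be confused with those of C4b, was detected too rarely to be compared, with a level of 0.01 in Oligo1.

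Serpina3n lies on chromosome 12 (104406729 to 104414329, plus strand). Its level in Oligo1 was 1.99, 2.07, 1.70 and 1.83, against 0.65, 0.59, 0.35 and 0.48 in Oligo2, 0.15, 0.11, 0.06 and 0.11 in Oligo3 and 0.36, 0.34, 0.21 and 0.29 in Oligo4. The groups did not overlap, and the order of the other clusters was the same in all 4 libraries, with Oligo2 above Oligo4 and Oligo4 above Oligo3. The differences were 1.38 ± 0.06 against Oligo2, 1.79 ± 0.14 against Oligo3 and 1.60 ± 0.11 against Oligo4 (SD, n = 4). Its neighbours in the same gene cluster, Serpina3m and Serpina3i, were at or near 0.

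Masp1, the mannan-binding lectin serine protease that acts at the start of the lectin pathway of complement, was the other complement gene above each cluster. Its level in Oligo1 was 0.94, 0.88, 0.74 and 0.71, and in no library of another cluster did it exceed 0.39. Masp1 was 2.92-fold (2.47 to 3.44) above Oligo2, 6.71-fold (5.96 to 8.43) above Oligo3 and 2.67-fold (2.18 to 3.32) above Oligo4. Of 22 complement genes on the list, 4 were expressed widely enough to be compared. The third that was called, Cd59a, which blocks the membrane attack complex, was higher than in Oligo3 by 0.64 and Oligo4 by 0.71 but was 0.18 below Oligo2.

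Il33 encodes an alarmin of the interleukin-1 family that mature oligodendrocytes keep in the nucleus. It lies on chromosome 19 (29925114 to 29960718, plus strand). Its level in Oligo1 was 3.14, 2.61, 2.89 and 2.30, against 0.84, 0.43, 0.57 and 0.36 in Oligo2, 1.95, 1.25, 2.15 and 1.58 in Oligo3 and 1.85, 1.02, 1.61 and 1.05 in Oligo4. Oligo1 did not overlap the other clusters, and the levels in mouse 3 were above those in mouse 6 for the same tissue in every cluster. Il33 was 10.2-fold (7.07 to 13.4) above Oligo2, 2.45-fold (1.77 to 3.33) above Oligo3 and 3.36-fold (2.49 to 4.58) above Oligo4. WT oligodendrocytes as a whole had 1.00 to 2.08, so Oligo2 lay below that range and Oligo1 above it.

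Anxa2, a calcium-dependent membrane and actin binding annexin, lies on chromosome 9 (69453620 to 69491795, plus strand). Its level in Oligo1 was 1.00, 0.69, 0.68 and 0.60, against at most 0.08 in Oligo2, 0.09 in Oligo3 and 0.29 in Oligo4. It was 18.5-fold (15.7 to 28.6) above Oligo2, 15.4-fold (14.7 to 16.4) above Oligo3 and 5.20-fold (4.20 to 8.23) above Oligo4. Snx10, a sorting nexin of the endosome that takes part in lysosome function, lies on chromosome 6 (51523901 to 51590679, plus strand). Snx10 was expressed at 0.48, 0.44, 0.28 and 0.30 in Oligo1 and at 0.01 to 0.13 in the other clusters, without overlap. Its folds spread widely against Oligo4, from 3.91 to 32, where the cortex of mouse 3 had 47 cells and a level of 0.01.

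Several of the other genes above each cluster encode secreted or extracellular proteins or enzymes that act on them, a description and not a tested theme. They were Htra1, a serine protease that degrades extracellular matrix, Sparc, a matrix glycoprotein, Cela1, an elastase, Trf, the iron carrier transferrin, and Sulf2 and Ndst1, which shape heparan sulfate. Htra1 was at 1.44, 1.61, 1.35 and 1.87 in Oligo1, where the cortex of mouse 6 was highest, and at 0.80 to 1.24 in all other clusters. Trf was at 6.34, 5.82, 6.38 and 6.01 in Oligo1, and its difference was 0.29 ± 0.05 against Oligo2 but 0.91 ± 0.09 against Oligo3 and 1.06 ± 0.05 against Oligo4. Trf levels overlapped between Oligo1 and Oligo2, and mouse 3 was above mouse 6 in each cluster.

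Cd63, a tetraspanin of late endosomes and exosomes, was at 3.06, 2.63, 2.76 and 2.58 in Oligo1. Its difference graded from 1.35 ± 0.08 against Oligo2 through 0.63 ± 0.12 against Oligo3 to 0.38 ± 0.05 against Oligo4. Fabp5, which carries fatty acids inside the cell, was at 3.87, 3.76, 3.64 and 3.76, and its order was different, with 0.61 ± 0.16 against Oligo2, 0.39 ± 0.10 against Oligo3 and 0.98 ± 0.12 against Oligo4. Tmed10, a cargo receptor of the early secretory pathway, had the smallest spread, at 0.40 ± 0.04, 0.61 ± 0.04 and 0.40 ± 0.02. Msrb1, which reduces oxidised methionine, was 0.51 ± 0.10, 0.45 ± 0.07 and 0.42 ± 0.02 above the other clusters, nearly the same distance from each. Rhoj, a small GTPase of the CDC42 family, was at 0.65, 0.55, 0.43 and 0.41 in Oligo1 and at 0.05 to 0.21 elsewhere.

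Neat1 and Malat1 are neighbouring nuclear long noncoding RNAs, and they went opposite ways. Neat1, the scaffold of paraspeckles, was at 2.66, 2.94, 2.79 and 3.09 in Oligo1, with differences of 0.69 ± 0.14 from Oligo2, 0.95 ± 0.17 from Oligo3 and 1.50 ± 0.28 from Oligo4. Malat1, a component of nuclear speckles, was at 8.31, 8.24, 8.26 and 8.23 in Oligo1 and at 8.48 to 9.37 in all libraries of the other clusters, so that the groups did not overlap. Its ratio of CPM was 0.791 (0.723 to 0.867) to Oligo2, 0.650 (0.612 to 0.684) to Oligo3 and 0.577 (0.519 to 0.610) to Oligo4. Stmn1, a microtubule-destabilising protein, was the other lower gene, by 0.41 ± 0.12, 0.26 ± 0.10 and 0.26 ± 0.03, and it stayed close to the limit against Oligo3 and Oligo4.

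**Figure D2:**
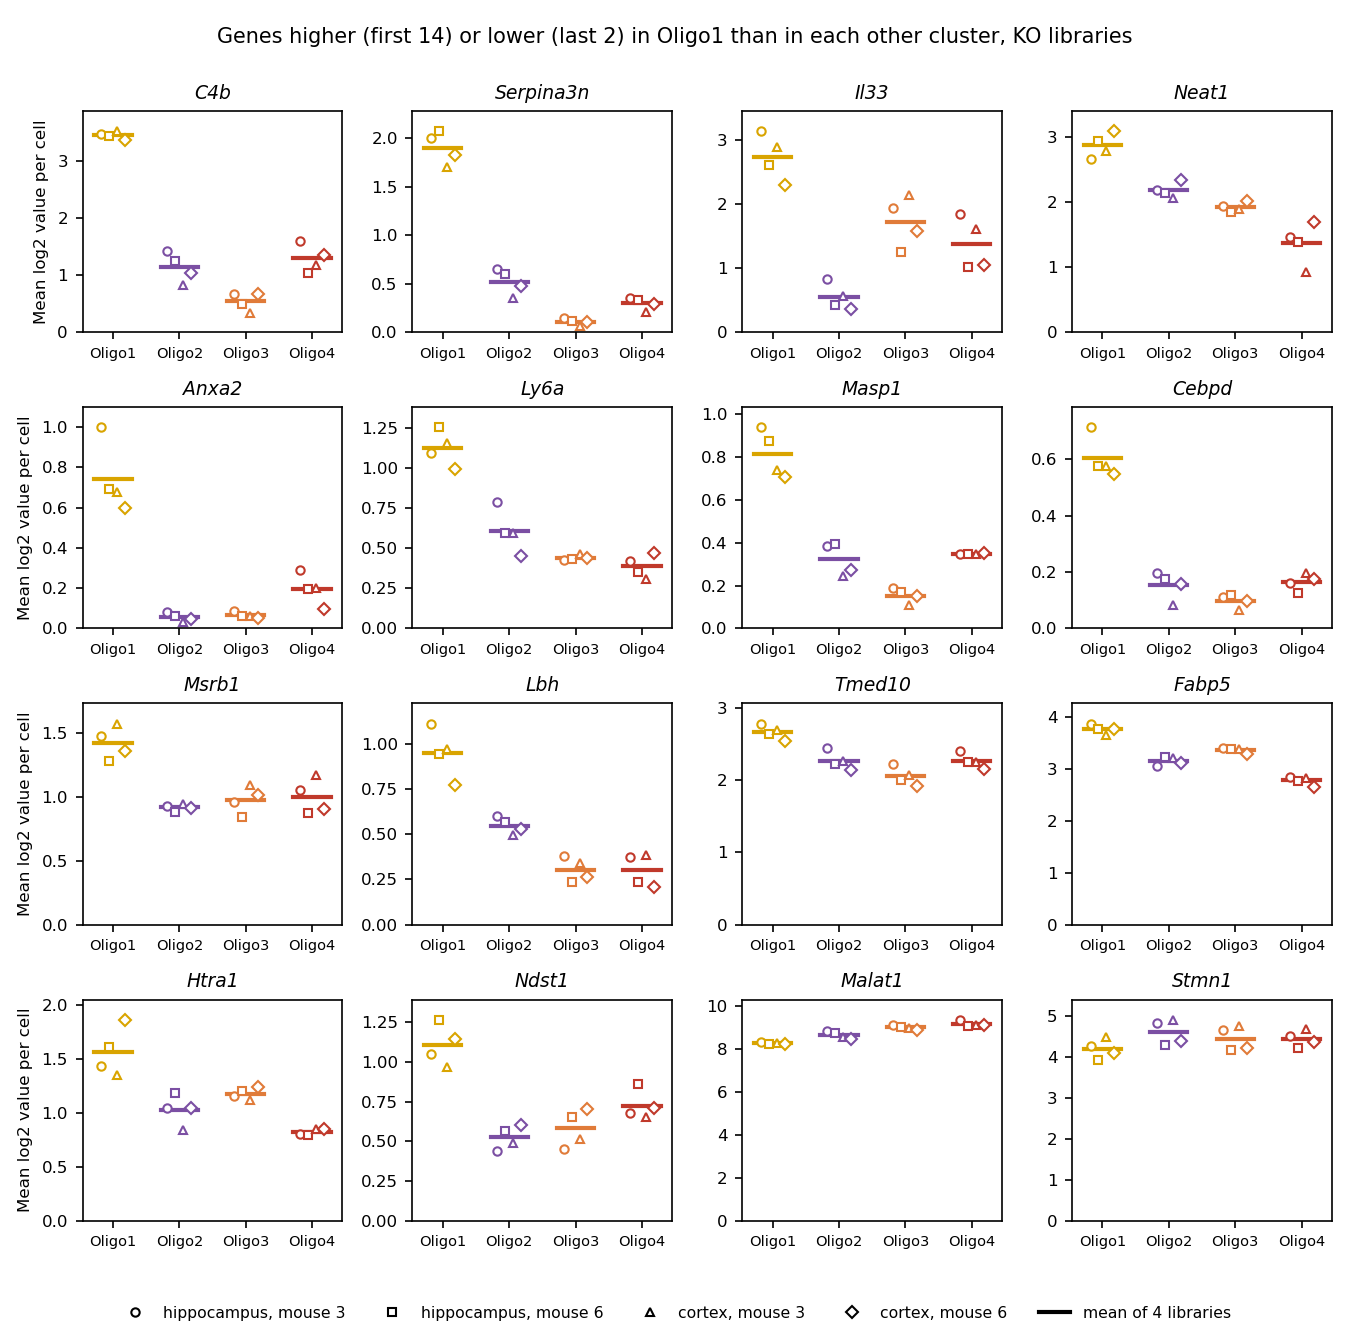
Mean log2 value per cell (vertical axes) of 14 genes higher and 2 genes lower in Oligo1 than in each other cluster, with a symbol for each of the 4 KO libraries and a bar for their mean. In C4b, Serpina3n, Il33 and Anxa2 the 4 Oligo1 symbols stand above all others, and in Malat1 they stand below all others, at 8.23 to 8.31.

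Of transcription factors, Cebpd was among the 26 genes and Fos was not. Cebpd, a C/EBP transcription factor of the acute-phase response, was at 0.71, 0.58, 0.58 and 0.55 in Oligo1 and at no more than 0.20 in any library of another cluster. Cebpd was 5.00-fold (3.87 to 9.15) above Oligo2, 8.10-fold (6.02 to 12.8) above Oligo3 and 4.60-fold (3.03 to 6.40) above Oligo4. Fos, part of the AP-1 factor, was at 0.53, 0.27, 0.28 and 0.17 in Oligo1, against 0.02 to 0.07 in Oligo2, 0.01 to 0.02 in Oligo3 and 0.07 to 0.15 in Oligo4. Fos passed the limit against Oligo2 and Oligo3, by 0.27 ± 0.14 and 0.29 ± 0.15, and not against Oligo4, where the difference was 0.21 ± 0.12. On CPM it was higher than in each cluster, by 1.36 on the log2 scale of CPM against Oligo4. Of the immediate early genes compared, 9 of 11, 6 of 12 and 6 of 14 were higher on CPM against Oligo2, Oligo3 and Oligo4. None was lower, and 8.76%, 8.86% and 11.5% of all genes were higher on that scale. Fos and Junb were detected in 25.1% and 18.8% of Oligo1 cells, but in at most 4.1% of Oligo2 or Oligo3 cells. They entered those comparisons through Oligo1 and could be called only higher. After thinning, 7, 7 and 9 of the listed immediate early genes were still compared against Oligo2, Oligo3 and Oligo4, and none passed. The hippocampus of mouse 3 had the highest Fos level. Tissue was dissociated in the presence of actinomycin D, which blocks new transcription, and whether handling contributed to Fos was not tested.

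Promoters from RefSeq (GRCm38.p6, 250 bases before to 50 bases after a start site) were found for 18 of the 26 genes and searched on both strands for short letter patterns of these factors. The AP-1 letters TGANTCA occurred in 3 of the 18 (16.7%), namely Adssl1, Anxa2 and Snx10, against 5.18% of the 7336 compared genes with a promoter and 8.97% of all genes with one. The C/EBP letters TTGCNNAA also occurred in 3 (16.7%), namely Adssl1, Gadd45a and Il33, against 9.41% and 12.2%. The STAT letters TTCNNNGAA occurred in 1 (5.56%), Tulp4, against 7.81% and 9.55%, and the sterol element letters TCACNCCAC in 0, against 1.36% and 1.44%. These counts describe 18 genes' windows and a match is not a bound site. The RefSeq starts used for Anxa2, Snx10 and Il33 lie inside the gene spans given above, and the 2 stretches shown for Adssl1 overlap. The 30 bases around each AP-1 or C/EBP match are shown because Anxa2, Snx10 and Il33 are among the genes that set Oligo1 apart, with the match in capitals and the distance counted from the start site to its first base.
Adssl1, AP-1, chr12:112619870-112619899, plus strand, 165 bases upstream: cctagggtgttcTGAGTCAtctgcttgccc
Anxa2, AP-1, chr9:69453576-69453605, plus strand, 95 bases upstream: ttccaagttggaTGAGTCAcccagcagggt
Snx10, AP-1, chr6:51523974-51524003, plus strand, 98 bases upstream: gccgccgcgcctTGAGTCAgcaaactccgc
Adssl1, C/EBP, chr12:112619883-112619912, plus strand, 153 bases upstream: gagtcatctgcTTGCCCAAgtcgtgtcggg
Gadd45a, C/EBP, chr6:67037484-67037513, minus strand, 95 bases upstream: cgtctgctaatTTGCATAAcccaatggcct
Il33, C/EBP, chr19:29945694-29945723, plus strand, 85 bases upstream: tatcgctccatTTGCATAActttactcatc
All 3 AP-1 matches read TGAGTCA, and the C/EBP matches of Gadd45a and Il33 both read TTGCATAA.

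Of 24 listed genes of the gp130 and STAT3 pathway, 13 were compared, and 4 were higher against Oligo2, 3 against Oligo3 and 2 against Oligo4, with 1 lower against Oligo4. Socs3 and Bcl3 were detected in 27.9% and 17.7% of Oligo1 cells, but in at most 3.3% of Oligo2 or Oligo3 cells. They entered those comparisons through Oligo1 and could be called only higher, so the list counts are partly set by the filter. Over all genes, 1.43%, 1.15% and 1.22% were higher and 0.98% lower than in Oligo4. The list had 7, 8 and 7 higher genes on CPM, beside 8.76%, 8.86% and 11.5% of all genes, and 1, 2 and 1 of 11 after thinning. Stat3 itself was at 0.97, 1.01, 0.83 and 0.86 in Oligo1, above every library of Oligo2 (0.57 to 0.70), Oligo3 (0.43 to 0.53) and Oligo4 (0.57 to 0.75). It passed the limit against Oligo2 by 0.28 ± 0.03 and Oligo3 by 0.44 ± 0.09, and its difference from Oligo4 was 0.22 ± 0.07. Socs3, the feedback inhibitor that STAT3 induces, was at 0.43, 0.24, 0.37 and 0.19 in Oligo1, 0.02 to 0.05 in Oligo2, 0.01 to 0.02 in Oligo3 and 0.05 to 0.15 in Oligo4. Its CPM were 16.0-fold (11.9 to 32.2) above Oligo2, 27.5-fold (14.4 to 47.7) above Oligo3 and 4.08-fold (2.44 to 6.16) above Oligo4. Socs3 averaged 3.34 CPM in Oligo2 and 1.87 in Oligo3, so the folds over these clusters rest on low counts and are imprecise. Bcl3, another STAT3-induced gene, was under the limit on the log2 scale, at 0.25, 0.12, 0.20 and 0.07 in Oligo1 and 0.01 to 0.11 in Oligo4, but on the log2 scale of CPM it was higher than in Oligo2 by 1.53, Oligo3 by 1.53 and Oligo4 by 0.86. The receptors did not share this pattern. Il6st, which encodes gp130, differed by at most 0.07, Lifr by at most 0.03, and Cntfr was higher than in Oligo2 by 0.36 but lower than in Oligo4 by 0.31.

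The actin list held 5 higher genes of 33 against Oligo2, 6 of 32 against Oligo3 and 3 of 32 against Oligo4, with none lower, beside 1.43%, 1.15% and 1.22% of all genes higher. On CPM, 10 were higher and 2 lower against Oligo2, and 14 and 15 were higher against Oligo3 and Oligo4. The CPM shares of all genes were 8.76%, 8.86% and 11.5% higher, and 8.49% lower than in Oligo2. After thinning, 3, 5 and 2 of 29 listed genes were higher. Flnc and Tagln2 were detected in 31.0% and 23.4% of Oligo1 cells, but in at most 3.5% of Oligo2 or Oligo3 cells. They entered those comparisons through Oligo1 and could be called only higher. The called members differed from cluster to cluster. Tmsb4x and Gsn, which bind and sever actin, were higher than in Oligo3 (0.61 ± 0.06 and 0.67 ± 0.09) and Oligo4 (0.48 ± 0.08 and 0.58 ± 0.14), with 0.14 and 0.07 against Oligo2. Arpc1b, a subunit of the ARP2/3 complex, was higher than in Oligo2 (0.77 ± 0.07) and Oligo3 (0.66 ± 0.05), with 0.14 ± 0.17 against Oligo4. Flnc, a filamin, was 15.6-fold (9.24 to 38.7) above Oligo2 and 14.6-fold (12.1 to 22.4) above Oligo3, from a level of 0.42, 0.33, 0.28 and 0.19 in Oligo1. It averaged 3.11 CPM in Oligo2 and 3.09 in Oligo3, so these folds rest on low counts too. On the log2 scale of CPM, Flnc was above Oligo4 as well, by 1.54. Tagln2, an actin-bundling protein of low level, was at 0.35, 0.26, 0.18 and 0.21 in Oligo1, at 0.02 or less in Oligo2 and at 0.03 to 0.07 in Oligo4, and passed the limit only on the CPM scale. It was named after its values were seen.

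Among 10 annexin and S100 genes compared, the direction turned with the reference. Against Oligo2, 1 was higher and 5 were lower, against Oligo3, 2 were higher and 1 lower, and against Oligo4, 4 were higher and none lower. Over all genes, 1.43%, 1.15% and 1.22% were higher than in Oligo2, Oligo3 and Oligo4, and 1.72%, 1.09% and 0.98% lower. After thinning, 1 was higher and 2 of 8 were lower than in Oligo2. On CPM, 3 were higher and 5 lower than in Oligo2, beside 8.76% and 8.49% of all genes. Against Oligo4, 9 were higher on CPM, beside 11.5% of all genes. S100b stood out among the lower genes, at 0.25, 0.20, 0.23 and 0.18 in Oligo1 and 1.22, 0.77, 1.45 and 1.26 in Oligo2, where its ratio was 0.102 (0.0687 to 0.141). S100a6 was higher than in Oligo3 (0.45 ± 0.16) and Oligo4 (0.50 ± 0.19) and was at -0.14 ± 0.12 against Oligo2.

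Against Oligo2, the lowest mean differences belonged to Selenop and Pmp22. Pmp22, a tetraspan membrane protein, was at 0.50, 0.35, 0.73 and 0.25 in Oligo1 and 2.02, 1.56, 2.35 and 1.85 in Oligo2. Selenop, a secreted selenium carrier, was at 0.83, 1.39, 1.31 and 1.11 against 2.59, 2.56, 2.81 and 2.77, a ratio of 0.334 (0.254 to 0.445). Neither overlapped. Spock3, an extracellular proteoglycan, was lower by 1.29 ± 0.07 on the log2 scale, Plin3, a lipid-droplet protein, by 1.26 ± 0.15, Anln, which binds septins in myelin, by 1.27 ± 0.13, and Gng11, a G protein subunit, by 1.38 ± 0.05. Enpp6, a choline-releasing phosphodiesterase known from newly formed oligodendrocytes, was at 0.98, 0.97, 1.09 and 0.77 in Oligo1 and 1.92 to 2.17 in Oligo2. Higher than in Oligo2 were, beside the 26 genes, Opalin, a glycoprotein of mature myelin, by 1.44 ± 0.33, Cd9, a tetraspanin, by 1.34 ± 0.35, and Slc9a3r2, a PDZ scaffold, by 0.99 ± 0.10.

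Several lipid synthesis genes were also lower than in Oligo2. Of 23 genes of fatty acid and complex lipid synthesis, 7 were lower and 1, Fabp5, was higher, with a list median of -0.0612 beside 0.0003 for all genes (9 lower and 3 higher on CPM, 4 lower and 1 higher after thinning). The lower genes were Scd1, Scd2, Elovl1, Elovl5, Elovl7, Fa2h and Ugt8a, by 0.26 to 0.42. Over all genes, 1.72% were lower and 1.43% higher than in Oligo2, with 8.49% and 8.76% on CPM. Of 24 cholesterol synthesis genes, 22 had a difference below 0 against Oligo2, but the differences were small and 3 passed the limit, Hmgcs1, Idi1 and Msmo1. Against Oligo3, 22 of 24 were above 0 and 4 passed the limit, namely Hmgcs1, Fdps, Sqle and Cyp51, beside 1.15% of all genes higher. This count of cholesterol genes depended on the scale. It was 15 higher and 2 lower on CPM, beside 8.86% and 5.22% of all genes, and 1 higher after thinning. Against Oligo2 it was 1 higher and 8 lower on CPM and 1 lower after thinning. Hmgcs1, which makes the precursor of mevalonate, was at 2.11, 2.26, 1.79 and 2.07 in Oligo1, at 2.26 to 2.63 in Oligo2, at 1.45 to 1.73 in Oligo3 and at 1.97 to 2.12 in Oligo4. Oligo1 and Oligo4 thus overlapped. None of the 24 passed the limit against Oligo4 on the log2 scale or after thinning, and 5 were higher on CPM, beside 11.5% of all genes.

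Against Oligo3, the largest differences apart from C4b and Serpina3n were on the lower side. Ptgds, the prostaglandin D synthase abundant in mature oligodendrocytes, was at 5.55, 6.14, 5.82 and 6.19 in Oligo1, 7.71, 7.62, 7.64 and 7.45 in Oligo3 and 6.99, 7.27, 7.05 and 7.19 in Oligo4, but 3.73, 4.13, 3.52 and 3.51 in Oligo2. Oligo1 held an intermediate level that overlapped none of the others. Its ratio was 3.44 (2.73 to 4.47) to Oligo2, 0.394 (0.316 to 0.487) to Oligo3 and 0.577 (0.541 to 0.625) to Oligo4. Apoe, the main lipid carrier of the brain, was at 2.10, 2.05, 2.50 and 2.07 in Oligo1 and at 4.33, 3.65, 3.85 and 2.92 in Oligo3. Against Oligo2 and Oligo4 it was higher, by 0.50 ± 0.26 and 0.30 ± 0.20, and both differences passed the limit.

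Glul, the glutamine synthetase that oligodendrocytes share with astrocytes, was at 2.26, 2.33, 2.96 and 2.44 in Oligo1, 3.20 to 4.05 in Oligo3, 3.26 to 3.82 in Oligo2 and 1.35 to 1.81 in Oligo4. Pex5l, a regulator of HCN channels, was 1.02 ± 0.07 lower than in Oligo3 and 0.45 ± 0.09 higher than in Oligo4. The connexin Gjc3 was lower than in Oligo3 by 0.63 ± 0.04 and than in Oligo2 by 0.42 ± 0.05. The astrocyte marker list of 8 genes summed to 124 to 186 CPM in Oligo1 and 196 to 266 in Oligo3, and its part in the Apoe and Glul differences was not tested.

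All 13 mitochondrially encoded genes had lower mean levels in Oligo1 than in each other cluster. Only against Oligo3 did any pass the limit, 10 of 13 beside 1.09% of all genes lower, with a list median of -0.385. mt-Nd1, a subunit of complex I, was at 3.99, 3.90, 4.27 and 4.33 in Oligo1 and 4.50, 4.35, 4.73 and 4.72 in Oligo3. The groups were separate, and the median mitochondrial share of UMIs per cell moved the same way, from 4.05, 4.04, 4.57 and 5.36% in Oligo1 to 5.18, 5.20, 5.83 and 6.75% in Oligo3. Mitochondrial share is also a common measure of cell quality, and its part in this difference was not tested. None of 28 ribosomal protein genes passed the limit against any cluster on the log2 scale, and 27 of them lay above 0 against Oligo4, with a median of 0.125. Against Oligo4, 9 of the 28 were higher on CPM, beside 11.5% of all genes, and 3 after thinning.

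Against Oligo4, several myelin and adhesion genes were lower, and several genes that were highest in Oligo2 were higher. Of 20 myelin protein genes, 5 were lower (Cnp, Mal, Opalin, Tspan2 and Nfasc) and 1, Gjb1, was higher, with a median of -0.138. Against Oligo2 the same list had 6 higher and 3 lower genes, and against Oligo3 it had 3 higher and 1 lower. Over all genes, 1.43%, 1.15% and 1.22% were higher than in Oligo2, Oligo3 and Oligo4, and 1.72%, 1.09% and 0.98% lower. Mal, a tetraspan membrane protein of compact myelin, was at 6.61, 6.66, 6.64 and 6.82 in Oligo1, 7.29 to 7.40 in Oligo4, 6.26 to 6.63 in Oligo3 and 5.96 to 6.15 in Oligo2. Oligo1 again lay between Oligo2 and Oligo4, and it overlapped Oligo3 in the range of libraries. Lpar1, a lysophosphatidic acid receptor, was 2.21, 2.11, 2.23 and 2.26 in Oligo1 and 3.04 on average in Oligo4, and it differed from Oligo2 and Oligo3 by -0.03 and -0.12. Cntn1, an axonal and glial adhesion protein, was lower than in Oligo4 by 0.56, and Olig1, a lineage transcription factor, by 0.43 ± 0.06.

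Apod, a lipid-binding apolipoprotein, was at 4.96, 4.63, 5.07 and 4.54 in Oligo1 and 3.35 to 3.67 in Oligo4, a ratio of 3.02 (2.76 to 3.20), whereas in Oligo2 it was 5.22 to 5.58. Gng11, Anln, Glul, Serpinb1a, Plin3 and Enpp6 likewise stood above Oligo4 and below Oligo2. Klk6, a secreted protease of mature oligodendrocytes, was at 0.56, 0.90, 0.68 and 0.73 in Oligo1 and 0.74 to 0.77 in Oligo2, which overlapped, but at no more than 0.05 in any library of Oligo3 or Oligo4. Its 72.5-fold (64.5 to 88.7) and 125-fold (54.4 to 359) ratios over these clusters rest on few Klk6 UMIs in them.

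**Figure D3:**
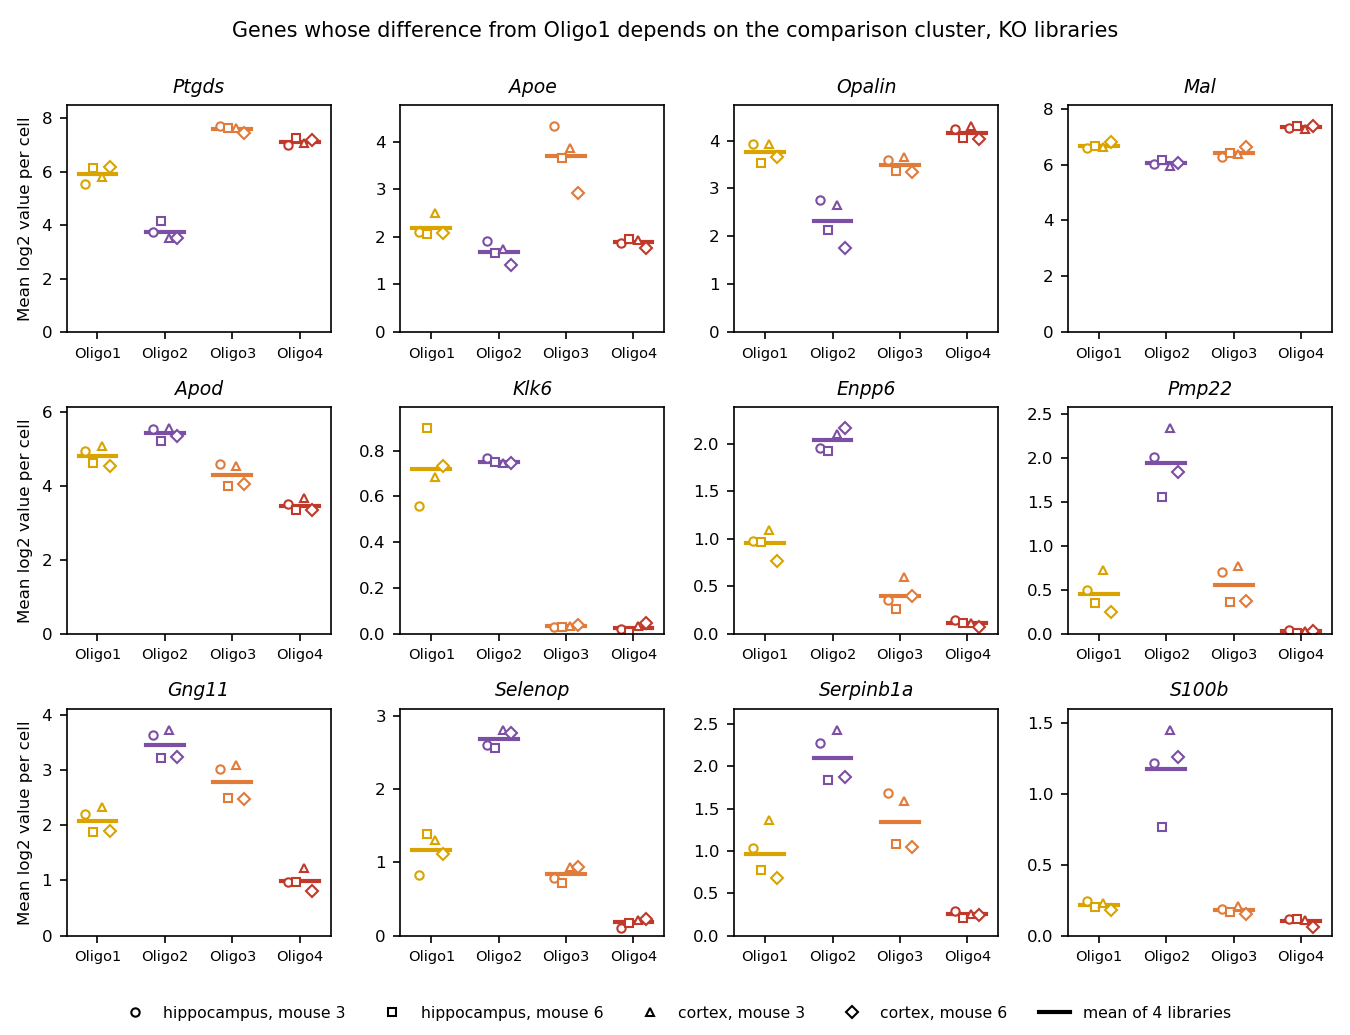
Mean log2 value per cell (vertical axes) of 12 genes whose difference from Oligo1 depended on the reference cluster, with a symbol for each of the 4 KO libraries and a bar for their mean. Ptgds, Opalin and Mal in Oligo1 stand between Oligo2 and Oligo4, Klk6 in Oligo1 (0.56 to 0.90) overlaps Oligo2 (0.74 to 0.77), and S100b is at 0.77 to 1.45 in Oligo2 and at most 0.25 elsewhere.

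Other lists had few calls. Lysosomal genes were higher in 6 of 32 against Oligo2, 4 against Oligo3 and 3 against Oligo4, with none lower, beside 1.43%, 1.15% and 1.22% of all genes higher. On CPM, 13, 13 and 9 were higher and 1 was lower against each of Oligo2 and Oligo3, and after thinning 3, 3 and 1 of 31 were higher. Among all genes, 8.76%, 8.86% and 11.5% were higher on CPM against Oligo2, Oligo3 and Oligo4, and 8.49%, 5.22% and 5.04% were lower. On the log2 scale Sparc was the only called gene of the TGF-beta pathway list against each cluster (1 of 15, 1 of 16 and 1 of 15 compared), with 5, 3 and 3 higher on CPM, and Tgfbr1 differed by at most 0.05. Hspa5, the chaperone of the endoplasmic reticulum, and Gadd45a, a growth-arrest gene, were the called genes of the unfolded protein and integrated stress list, 2 higher against Oligo2, 2 against Oligo3 and, with Gadd45a alone, 1 against Oligo4. That list had 6, 9 and 6 higher genes on CPM and 1, 1 and 0 after thinning. Heat shock genes had 0 calls among 13 against each cluster on the log2 scale. On CPM they had 2 higher and 1 lower against Oligo2, 1 higher against Oligo3 and 1 higher and 1 lower against Oligo4. These CPM counts are to be read beside the CPM shares of all genes given above. After thinning, 1 heat shock gene was higher against Oligo2. Interferon and MHC class I genes had 1 call, Ifi27 against Oligo3 by 0.32, with 10 of 11 compared genes above 0 against Oligo2, 10 of 10 against Oligo3 and 10 of 10 against Oligo4, mostly by small amounts. On CPM, 3, 6 and 5 of them were higher, and after thinning none of the 8, 8 and 7 still compared was.

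**Figure D4:**
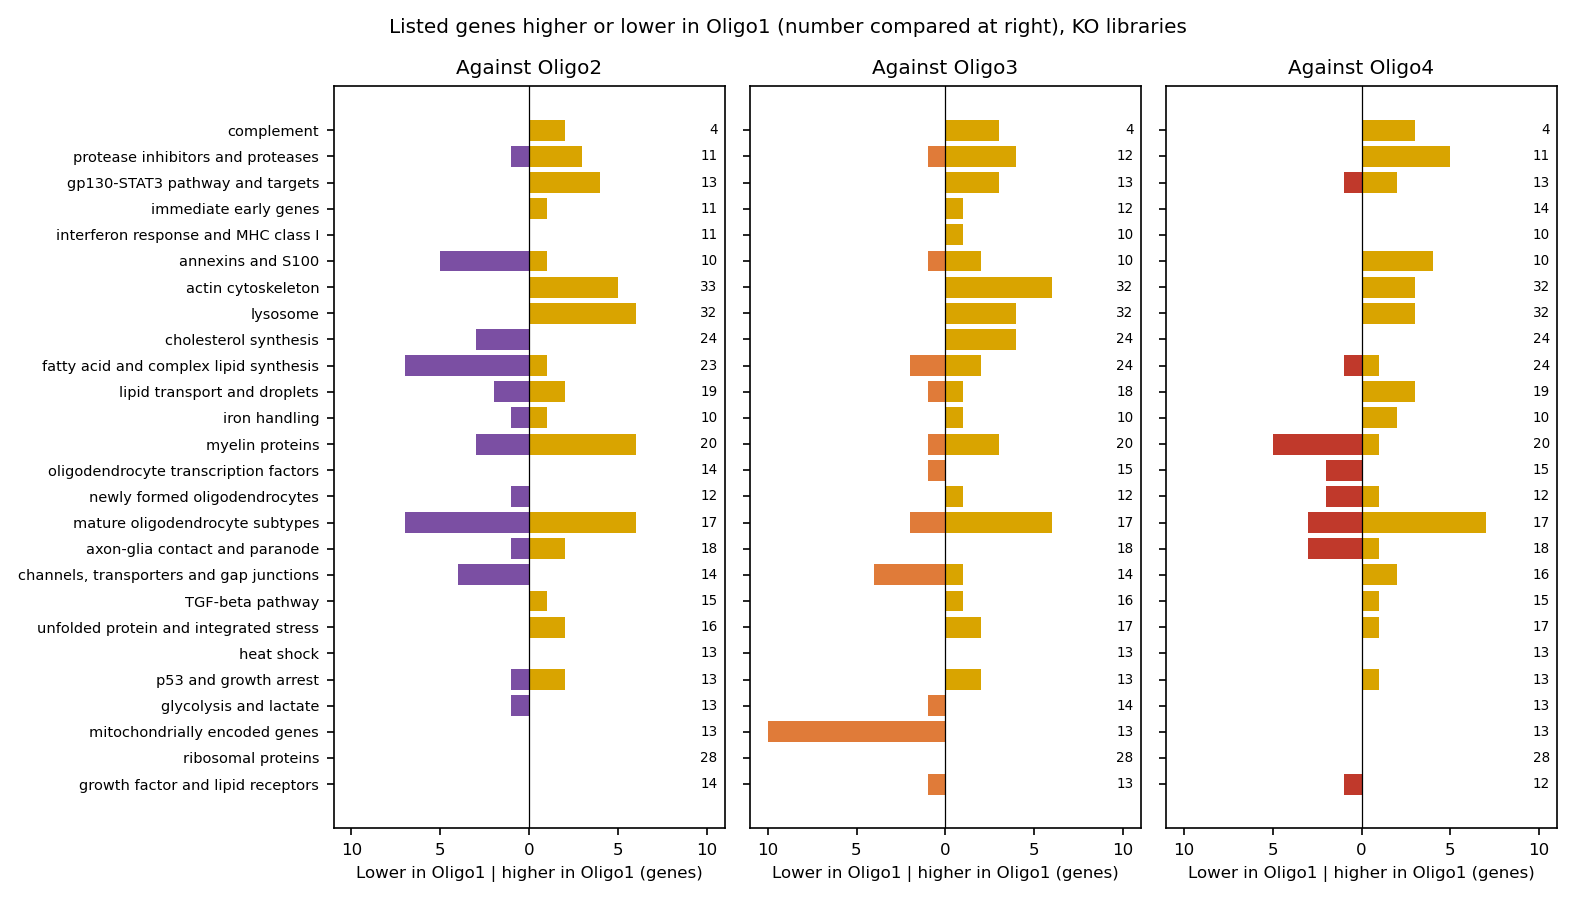
Number of listed genes called lower (bars to the left of 0) or higher (bars to the right) in Oligo1 against each other cluster over 4 KO libraries. The numbers at the right edge give how many genes of each list were compared. The longest bar is the 10 of 13 mitochondrially encoded genes lower than in Oligo3, where 1.09% of all genes were lower.

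Markers of other cell types were summed in each library and cluster. The microglial list of 12 genes summed to 15.5 to 22.5 CPM in Oligo1, 9.40 to 27.6 over the other clusters, and 2 of the 12 were at 0 in Oligo1. The endothelial list of 7 genes summed to 34.5 to 108 CPM in Oligo1, 10.9 to 39.4 in Oligo2, 7.61 to 38.3 in Oligo3 and 12.1 to 173 in Oligo4. Plvap, the protein of endothelial diaphragms, was the listed gene that separated the clusters, with levels of 0.40, 0.25, 0.28 and 0.19 in Oligo1, 0.02 or less in Oligo2 and Oligo3 and 0.04 to 0.12 in Oligo4. The defining endothelial genes Cldn5, Flt1 and Pecam1 were at 0.03 or less in every Oligo1 library. The ependymal and choroid plexus list summed to 36.0 to 266 CPM, against 9.71 to 29.9 in Oligo2, 17.4 to 38.6 in Oligo3 and 43.6 to 73.4 in Oligo4. Foxj1, a regulator of ciliated cells, was 0.26 ± 0.07 above Oligo2 and equally high in Oligo4, whereas the choroid plexus gene Ttr differed by 0.01 or less from any cluster in mean level. The part of these cell types in the differences was not tested.

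Oligo1 was also divided by the authors' finer clustering. As these clusters too were drawn from the values compared, the differences are descriptions. The 26 genes were chosen as high in these same Oligo1 cells, so counts of them in the finer clusters are descriptions too and test nothing. At a finer resolution of the same graph clustering (10 neighbours), the deposited labels put 1154 Oligo1 cells (74.4%) in finer cluster 2, 158 (10.2%) in finer cluster 11 and 138 (8.89%) in finer cluster 10. Among KO cells, finer cluster 11 was made of Oligo1 cells only, with 114, 30, 10 and 4 cells in the libraries, and finer cluster 10 had 93, 32, 10 and 3. Values for these rest on the 3 libraries with at least 10 cells. Finer cluster 11 had 208 genes higher (2.22% of 9381) and 235 lower (2.51%) than finer cluster 2, and finer cluster 10 had 131 higher (1.4%) and 107 lower (1.14%). Median UMIs per cell were 10540 in cluster 2, 11164.5 in cluster 11 and 11020.5 in cluster 10.

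Finer cluster 11 held more of the transcripts by which Oligo1 was distinguished. In the hippocampus of mice 3 and 6 and the cortex of mouse 3, Serpina3n was at 3.25, 3.20 and 3.34, against 1.65, 1.93 and 1.56 in finer cluster 2. Cd63 was at 4.02, 3.65 and 3.87 against 2.92, 2.56 and 2.74, Anxa2 at 1.99, 1.63 and 1.52 against 0.83, 0.64 and 0.67, and Fabp5 at 4.67, 4.67 and 4.96 against 3.73, 3.69 and 3.52. These groups did not overlap. Of the 26 genes, 16 were called higher and 0 lower in finer cluster 11. C4b was not among those that separated them, with 3.71, 3.23 and 3.64 against 3.42, 3.44 and 3.52. Fos was at 1.05, 0.83 and 1.06 against 0.40, 0.21 and 0.21, and Socs3 at 1.00, 0.76 and 1.12 against 0.32, 0.20 and 0.34. Lower genes included Aspa, which breaks down N-acetylaspartate, by 0.73, and Bin1, a membrane-bending protein, by 0.91 on the log2 scale.

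Finer cluster 10 shared part of the rise seen in finer cluster 11. Of the 26 genes, 9 were called higher and 1 lower in finer cluster 10 than in finer cluster 2. Serpina3n was higher there by a mean of 1.10 over the 3 libraries, compared with 1.55 in finer cluster 11. Other genes set finer cluster 10 apart. Klk6 was at 2.18, 2.51 and 2.57 against 0.30, 0.77 and 0.46 in finer cluster 2, Selenop at 2.28, 3.07 and 3.38 against 0.66, 1.29 and 1.09, and Pmp22 at 1.56, 1.33 and 2.08 against 0.37, 0.26 and 0.57. Ptgds was at 2.42, 4.07 and 3.05 against 6.04, 6.36 and 6.07, and Opalin at 3.21, 2.57 and 3.27 against 4.03, 3.65 and 4.00. Klk6 apart, these genes also differed between Oligo1 and Oligo2, and 79 Oligo2 cells of KO mice carried the same finer label. Inside finer cluster 10, Oligo1 cells still exceeded those Oligo2 cells in 92 genes (0.99% of 9297), with 11 of the 26 among them, and were below them in 98. Il33 was higher there by 1.75 (1.02 to 2.41 over 3 libraries), and S100b was lower by 1.27.

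Finer cluster 2 also held 235 Oligo4, 186 Oligo3 and 57 Oligo2 cells of the same 4 libraries. Within it, Oligo1 exceeded Oligo4 in 73 genes (0.781% of 9348), 12 of the 26 included, and was lower in 46. It exceeded Oligo3 in 48 genes (0.52% of 9230), 16 of the 26 included, and was lower in 21. The difference in C4b between Oligo1 and Oligo4 was 0.95 (0.71 to 1.17) inside finer cluster 2, compared with 2.15 ± 0.25 over whole clusters, and Serpina3n differed by 1.01 (0.94 to 1.10) compared with 1.60 ± 0.11. With 80 neighbours, 1169 Oligo1 cells shared a cluster with 608 Oligo4 cells and 369 shared one with 1275 Oligo2 and 411 Oligo3 cells. With 120 neighbours, 921 shared a cluster with 90 Oligo4 cells, 306 with 2138 Oligo3 cells and 177 with 365 Oligo2 cells, and the others lay in another 2 clusters. With 150 neighbours, 1226 shared a cluster with 585 Oligo4 cells, 181 with 1240 Oligo2 cells and 145 with 2804 Oligo3 cells. Oligo1 as a whole was a cluster of its own at 100 neighbours, the resolution from which the authors made the 4 clusters.

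**Figure D5:**
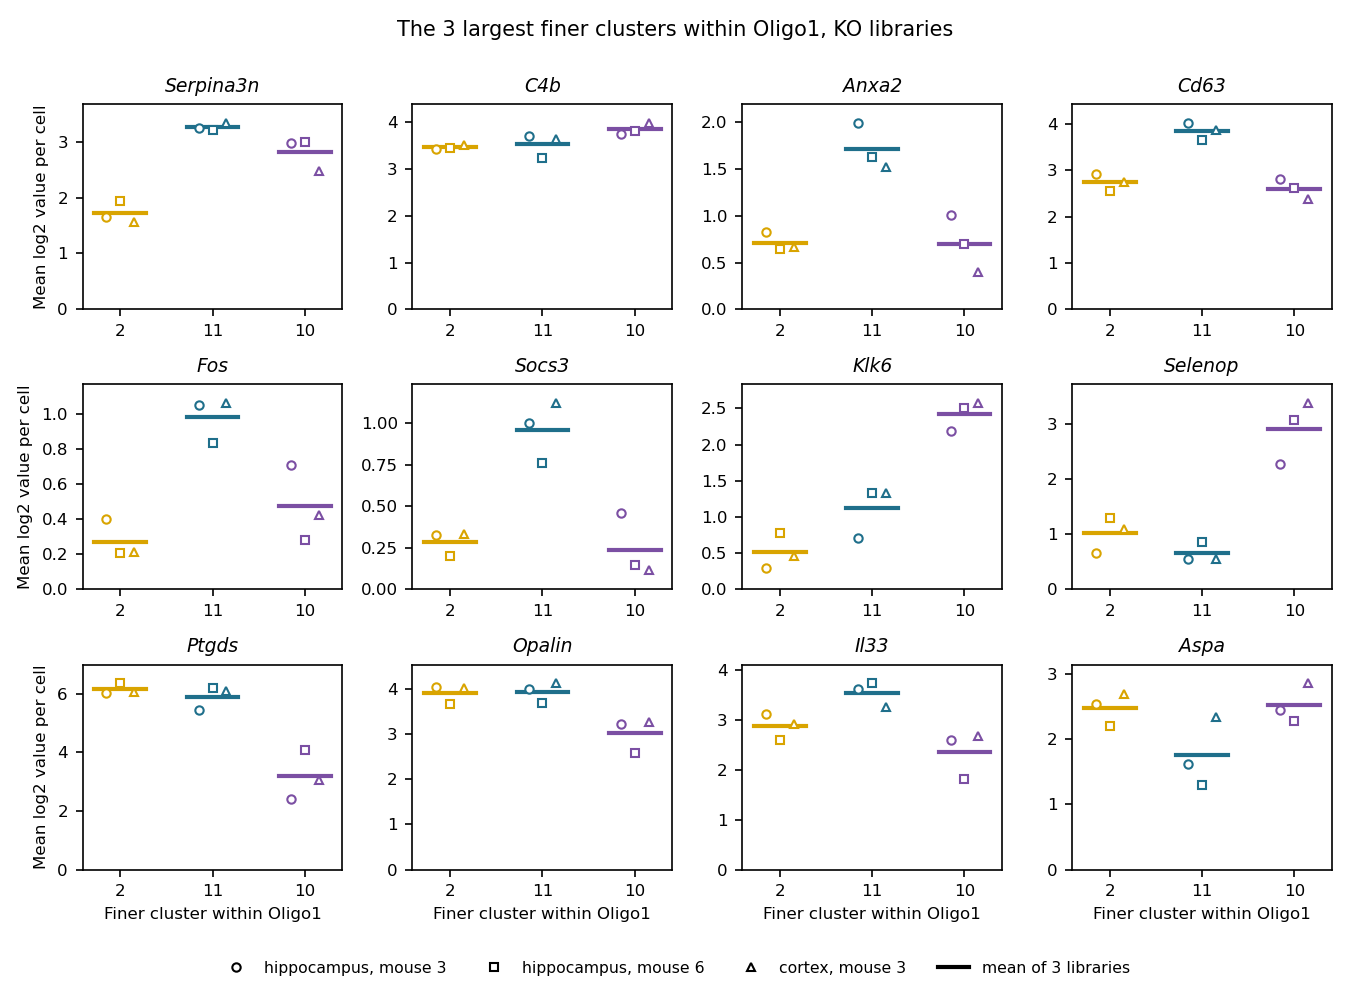
Mean log2 value per cell (vertical axes) of 12 genes in the 3 largest finer clusters within Oligo1 (horizontal axes), with a symbol for each of the 3 KO libraries that had at least 10 cells in each and a bar for their mean. Serpina3n, Anxa2, Cd63, Fos and Socs3 are highest in finer cluster 11, Klk6 and Selenop in finer cluster 10, and C4b lies between 3.23 and 3.98 in all.

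Whether the distance of Oligo1 from another cluster depended on tissue was not part of how the clusters were drawn, and it was tested with limma across all genes, hippocampus minus cortex, on the 4 library differences. No gene passed an adjusted p of 0.05 against Oligo2 (0 of 9359, 0%), Oligo3 (0 of 9296, 0%) or Oligo4 (0 of 9392, 0%), and the smallest Benjamini-Hochberg adjusted p-values were 0.842, 0.813 and 0.85. At an unadjusted limma p under 0.05 there were 530 of 9359, 519 of 9296 and 542 of 9392 genes. Without any tissue effect, a share of about 0.05 of the genes would pass this threshold. With mouse as a replicate block, limma called 1 gene against Oligo3, Apoe. The Oligo1 minus Oligo3 difference of Apoe was -2.23 and -1.60 in the hippocampus of mice 3 and 6, and -1.355 and -0.85 in the cortex. The tissue difference was -0.81 with a standard error of 0.038 and an adjusted p of 0.0248 in the blocked fit, and with a standard error of 0.261 and an adjusted p of 0.832 without the block. In both mice the hippocampal difference was the larger.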

How the data were processed

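Droplet libraries (10x 3′ v3.1) were made from hippocampus and cortex of 2 KO and 2 WT mice. The sort gates were set to exclude doublets before cells entered droplets. No doublet caller was run here, so doublets formed in droplets were not assessed. Per the methods, the authors aligned and counted reads with Cell Ranger 5.0.0 on mm10, kept cells with at least 5000 UMIs and at most 10% mitochondrial reads, normalised with scran, corrected batches with fastMNN and merged graph clusters into 4. The methods give a larger final number of cells than the 12581 used here. The deposited matrix holds log2 values (UMI count divided by a size factor, plus 1) of 18833 genes. The deposited cell table gives size factors as a ratio, UMI totals as counts, the mitochondrial percent and the cluster numbers. All 42420937 values above 0 returned whole UMI counts within 0.001, and in 1317 cells the recovered total differed from the deposited one.

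A gene was compared where the share of cells in which it was detected, averaged over both clusters and the 4 KO libraries, reached 5%, and differences were taken within each library. A gene rare in the other cluster could thus enter through Oligo1 alone and be called only higher, and the reverse held for lower genes. List counts are partly set by this. KO libraries held 904 to 2784 cells and 12015360 to 27847948 UMIs, and counts limit the precision of low genes. Calls between clusters were descriptive, by sign in 4 libraries and a mean difference of at least 0.25, and carried no test. The tissue contrast used limma 3.58.1 in R 4.3.3 on library differences, with Benjamini-Hochberg adjustment, and UMIs per cell used an exact sign-flip test. Mouse numbers pair the tissues, which come from the same animals, and the deviations of the paired libraries correlated at 0.12, 0.16 and -0.0012 against Oligo2, Oligo3 and Oligo4. Other steps used Python 3.11.15, NumPy 2.4.6, SciPy 1.17.1, pandas 2.3.3 and Matplotlib 3.10.9, and the call rule and the limma fit were tested on simulated data. Alternatives were another scale, other filters, thinned cells, centring, a mouse block and leaving out each mouse or library.

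Members and lists were chosen with earlier results of these data known. Named genes were the 8 highest and 8 lowest called against each cluster, the 15 most different from all clusters in each direction, and the 4 markers. Besides, they were listed genes where a list is described, the 5 that differed most in each finer comparison, and up to 5 from each tissue test. Bin1 fell outside these rules, and not every gene that met them is described. Promoter sequences came from RefSeq. P-values measure the spread between libraries of 2 mice. WT cells served only for the range of levels.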

Additional observations from a re-analysis of the deposited data

How the results depend on the processing

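The scale mattered most. On CPM (UMIs of a gene per 1000000), the genes higher and lower in Oligo1 numbered 820 and 795 against Oligo2, 824 and 485 against Oligo3, 1084 and 473 against Oligo4, and 191 and 29 against each cluster. With cells thinned to 5000 UMIs, 91, 76 and 85 genes were higher and 84, 52 and 53 lower against Oligo2, Oligo3 and Oligo4, with fewer genes tested, and the share of higher genes among those called against Oligo2 went from 45.4% to 52.0%. Against each cluster, 18 of the 26 higher genes and 1 of the 2 lower genes were then called. Leaving out a mouse or a library gave 124 to 142 higher and 154 to 169 lower genes against Oligo2, 96 to 118 and 94 to 117 against Oligo3, 113 to 134 and 91 to 106 against Oligo4, and 24 to 35 and 1 to 3 against each cluster, where the 2 lower genes became 1 without mouse 6 and without the KO hippocampus library of mouse 3. The differences in UMIs per cell ranged from -0.0351 to -0.022, 0.1334 to 0.1366 and -0.1619 to -0.1294. Of 129 differences of named genes, 87 moved by more than their spread on the CPM scale and 52 after thinning. None of the differences that had been called reversed sign under any alternative run, and reversal was not assessed for uncalled ones.

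The tissue test called 0 genes without each library in turn. With mouse as the replicate block it called 1 gene against Oligo3, Apoe, and this pairing changed no other call. Differences between clusters rest on 47 to 1218 cells per library and cluster, so ratios of genes with few UMIs, such as Snx10 and Klk6 over Oligo4, are imprecise.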

Other observations

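Another 6 cells of the Oligo1 cluster came from WT libraries and were in no comparison. Of these 6 cells, 3 had a UMI of C4b, with a mean log2 value of 0.90, and 4 had a UMI of Serpina3n, with 1.11. All 6 had UMIs of Il33 (2.08) and Fabp5 (3.74), whereas Anxa2 and Snx10 were each found in 1 cell.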
